A study of Mus musculus with 2 samples.

Results

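The genes described here are 9 transcription factor genes of the tooth bud: the odd-skipped genes Osr1 and Osr2, the homeobox genes Msx1, Msx2, Barx1 and Pitx1, the paired-box gene Pax9, and the LIM-homeobox genes Lhx6 and Lhx8. They were chosen by name, with earlier results of these data known. All 9 were found, as 12 of the 28107 transcript rows and 9 of the 22072 gene symbols listed. RNA-seq was done on lower molar mesenchyme cut by laser capture from frozen heads of mouse embryos at embryonic day 14.5. The tissue was from embryos heterozygous for an Osr2 mutation (Osr2+/-, the control, called the heterozygote below) and from homozygous mutants (Osr2-/-), both on a mixed background. By these labels both genotypes carry the mutant allele. The series' title calls the comparison group wild type, and the genotype label and design text, which give Osr2+/-, were followed; the control level of Osr2 is that of a heterozygote only as far as these hold. Per the series' design text, tissue of 3 control and mutant pairs was pooled before RNA extraction, so each genotype is 1 library of pooled tissue, and no difference below has a replicate check or a p-value. How the Osr2 allele was altered, and the sex of the embryos, are not given in the sources used here. From the deposited coverage, the libraries held about 5.38 M mapped reads for the heterozygote and 34.3 M for the mutant.

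In the mouse molar, signals from the dental epithelium switch on several of these factors in the mesenchyme beneath it. Msx1 and Bmp4, a secreted bone morphogenetic protein, maintain each other's expression there, and Pax9 acts with Msx1 to carry the tooth past the bud stage; without either gene molars arrest as buds. Osr2, a zinc-finger protein expressed more strongly on the tongue side of the tooth, restrains this programme, and embryos without it form extra teeth on that side. Barx1 marks molar rather than incisor mesenchyme, Lhx6 and Lhx8 act redundantly in molar formation, and Pitx1 is a factor of the lower jaw and the hind limb.

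Before the levels are compared, the sequences show how far reads of related members can be told apart. The longest run of identical bases between the Osr1 and Osr2 transcripts was 23 bases, in the zinc-finger coding part. It is shown with 15 more bases on each side as the 2 coding strands, from GENCODE transcripts on GRCm38, with capitals marking the 8 of 53 positions at which the genes differ. Osr1 lies at chr12:9579720-9579772 and Osr2 at chr15:35300882-35300934, both on the plus strand.
Osr1: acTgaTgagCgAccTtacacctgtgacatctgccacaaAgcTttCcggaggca
Osr2: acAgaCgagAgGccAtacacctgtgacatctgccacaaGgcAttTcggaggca
The longest run shared by Msx1 and Msx2 was 22 bases, in the homeobox, shown in the same way with 7 differing positions in 52. Msx1 lies at chr5:37821574-37821625 and Msx2 at chr13:53468467-53468518, both on the minus strand.
Msx1: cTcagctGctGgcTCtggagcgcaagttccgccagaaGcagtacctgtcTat
Msx2: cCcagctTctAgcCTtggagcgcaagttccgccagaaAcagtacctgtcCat
For Lhx6 and Lhx8 the longest shared run was 14 bases. No window of 45 bases, about the size of 1 read as estimated below, was identical within any of the 3 pairs.

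Osr2, the mutated gene, was the member that differed most. Its level was 38.7 RPKM in the heterozygote (95% counting interval 34.8 to 42.9) against 9.16 RPKM in the mutant (8.40 to 9.96), where RPKM is the number of reads per transcript length, scaled to the mapped reads of the library. It was therefore 4.23-fold lower in the mutant library (3.69 to 4.84). Mean read depth over the transcript was 9.22 for the heterozygote and 13.9 for the mutant, whose library had 6.38 times the depth. The counting intervals are Poisson and Clopper-Pearson intervals from approximate read numbers, about 356 and 537 for Osr2. They cover counting error only, since amplified reads are not independent molecules. Osr2 is listed with 1 transcript row of 1710 bases, on chromosome 15 from 35225867 to 35233060 in mm9, the build of the deposited files. With 1 row, which exons the mutant reads came from was not resolved, so the genotypes rest on the labels. In tissue pooled this way, fewer cells expressing a gene and less RNA per cell cannot be told apart.

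Osr1, the paralogue of Osr2 and a factor of early mesoderm and kidney, was at 6.86 RPKM in the heterozygote (5.37 to 8.59) and 8.74 RPKM in the mutant (8.06 to 9.47). The fold was 1.27 (1.002 to 1.65), on about 74 control reads. This interval included 1 when a read was taken as 50 bases (0.981 to 1.66). The control held 5.65 times as much Osr2 as Osr1 in RPKM, and the mutant 1.05 times as much. Osr1 thus made up 15.04% of the summed Osr1 and Osr2 level in the control and 48.8% in the mutant, while the sum was 45.6 RPKM in the heterozygote and 17.9 RPKM in the mutant. In RPKM, Osr2 fell by 29.6 and Osr1 was higher by 1.89.

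**Figure D1:**
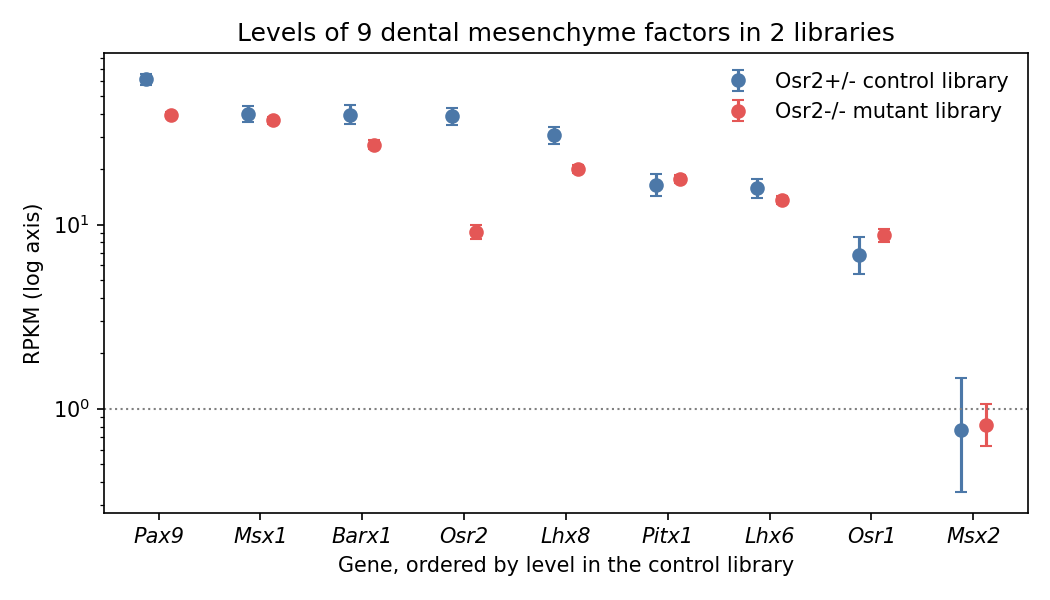
RPKM (log axis) of the 9 genes in the Osr2+/- control library (blue) and the Osr2-/- mutant library (red), 1 library each; bars are 95% counting intervals and the dotted line marks 1 RPKM. Osr2 drops from 38.7 to 9.16 RPKM, next to Osr1 at 8.74 RPKM, while Msx2 lies under 1 RPKM in both libraries.

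The Msx genes were at nearly the same level in both libraries. Msx1, which cooperates with Bmp4 in the mesenchyme, was at 40.0 RPKM in the heterozygote (36.2 to 44.0) and 36.8 RPKM in the mutant (35.4 to 38.3). The mutant level was 0.92 times the control level (0.830 to 1.02), an interval that includes 1. The antisense gene Msx1as lies within Msx1 and was at 11.4 RPKM in the heterozygote and 11.9 RPKM in the mutant. The strand of the reads is not stated, so reads of Msx1 and Msx1as may be mixed where they overlap. It was the 1 case in which another listed gene overlapped a member. Msx2, a close relative active in the enamel knot epithelium as well as in mesenchyme and bone, was at 0.770 RPKM in the heterozygote (0.354 to 1.47) and 0.816 RPKM in the mutant (0.629 to 1.06). About 9 control reads stand behind the Msx2 value, and its fold of 1.06 had an interval from 0.525 to 2.43. Msx2 made up 1.89% of the summed Msx level in the control and 2.17% in the mutant.

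Pax9, Barx1 and Lhx8 were all lower in the mutant library, and by similar amounts. Pax9, the most abundant of the 9 genes in both libraries, was at 61.7 RPKM in the heterozygote (57.6 to 65.9) and 39.4 RPKM in the mutant (38.1 to 40.7). It was 1.56-fold lower (1.45 to 1.69). Lhx8 was at 30.6 RPKM in the heterozygote (27.3 to 34.1) and 20.02 RPKM in the mutant (19.0 to 21.1), 1.53-fold lower (1.35 to 1.72). Barx1 was at 39.6 RPKM in the heterozygote (35.2 to 44.5) and 27.2 RPKM in the mutant (25.7 to 28.7), 1.46-fold lower (1.28 to 1.66). For each of these genes the counting intervals of the libraries did not overlap, and the folds of the 3 genes overlapped one another. Pax9 lies on chromosome 12 from 57796626 to 57812217, Lhx8 on chromosome 3 from 153969258 to 153993524 and Barx1 on chromosome 13 from 48758405 to 48761876 in mm9, so they are not neighbours of one another or of Osr2.

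Because these 3 genes differed together, the 250 bases before their start sites are printed, from RefSeq on GRCm38.p6. Pax9 is at chr12:56695221-56695470 on the plus strand, Barx1 at chr13:48662786-48663035 on the plus strand and Lhx8 at chr3:154330561-154330810 on the minus strand.
Pax9: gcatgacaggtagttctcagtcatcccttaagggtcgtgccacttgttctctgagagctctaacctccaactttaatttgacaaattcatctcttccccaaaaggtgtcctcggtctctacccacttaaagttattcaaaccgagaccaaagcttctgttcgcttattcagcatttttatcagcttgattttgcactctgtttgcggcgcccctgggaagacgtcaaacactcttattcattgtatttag
Barx1: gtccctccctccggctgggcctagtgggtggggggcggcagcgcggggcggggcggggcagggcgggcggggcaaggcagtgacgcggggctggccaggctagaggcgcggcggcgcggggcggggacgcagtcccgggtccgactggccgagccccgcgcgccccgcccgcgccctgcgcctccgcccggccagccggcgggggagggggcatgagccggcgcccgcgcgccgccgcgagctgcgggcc
Lhx8: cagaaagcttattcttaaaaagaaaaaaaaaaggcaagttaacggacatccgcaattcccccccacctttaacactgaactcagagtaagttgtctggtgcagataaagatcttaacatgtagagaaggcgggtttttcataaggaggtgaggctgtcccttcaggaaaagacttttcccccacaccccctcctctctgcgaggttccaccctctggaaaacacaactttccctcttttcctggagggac
They differ widely in base composition. The Barx1 window is 85.6% G and C with 40 CpG pairs, the Pax9 window 43.6% with 7 and the Lhx8 window 46.0% with 4, against medians of 52.4% and 6 over 32851 listed windows. Windows were listed for 6 of the 9 genes, 8 windows in all. The word ACAGTAGC, which odd-skipped zinc fingers are known to bind, was in none of the 8 windows on either strand and in 0.749% of all windows. The homeodomain word TAATTA, the same on both strands, was in the Msx2 window alone among the 8 and in 4.84% of all windows. A match or its lack describes these windows only.

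Lhx6 and Pitx1 differed little in total. Lhx6, the partner of Lhx8 in molar formation, was at 15.8 RPKM in the heterozygote (14.0 to 17.8) and 13.6 RPKM in the mutant (12.9 to 14.2) with its 4 transcript rows summed, 1.17-fold lower (1.03 to 1.33). The level of Lhx8 was 1.93 times that of Lhx6 in the control and 1.48 times in the mutant. Pitx1 was at 16.5 RPKM in the heterozygote (14.4 to 18.8) and 17.7 RPKM in the mutant (16.8 to 18.6). Its fold of 1.07 had an interval from 0.930 to 1.24.

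The rows of Lhx6 did not all differ in the same direction. They form pairs that differ by 104 bases, at each of 2 start sites. In GENCODE on GRCm38 this is exon 8 of 9, at chr2:36087368-36087471 on the minus strand, all of it coding. It is shown in capitals between the last 30 coding bases before it and the first 18 after it, because it separates the forms that differ below.
Lhx6 exon: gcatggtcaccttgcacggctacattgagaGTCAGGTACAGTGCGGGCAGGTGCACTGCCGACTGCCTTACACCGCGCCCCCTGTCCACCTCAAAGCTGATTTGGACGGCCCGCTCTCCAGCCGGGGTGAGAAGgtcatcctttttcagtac
Its length is not a multiple of 3 and so shifts the reading frame; the coding part is 1089 bases with it and 1044 without it. From the inner start site, the row without the exon (3188 bases) was at 6.46 RPKM in the heterozygote and 8.18 RPKM in the mutant. The row with it (3292 bases) was at 8.06 RPKM in the heterozygote and 3.91 RPKM in the mutant. From the outer start site, the row of 3378 bases was at 1.13 RPKM in the heterozygote and 0.0227 RPKM in the mutant, and that of 3482 bases at 0.160 and 1.44 RPKM. Rows with the exon, as judged by length, made up 52.0% of the Lhx6 level in the control and 39.5% in the mutant. The inner start site accounted for 91.8% and 89.2%. The authors' software divided reads among overlapping rows, and that division carries an error not given in the files, so no interval is given for these shares. At the outer start site the rows exchanged places between the libraries, at low levels. With the 3188-base row alone, the log2 ratio of Lhx6 was 0.30 instead of -0.21 for the sum.

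**Figure D2:**
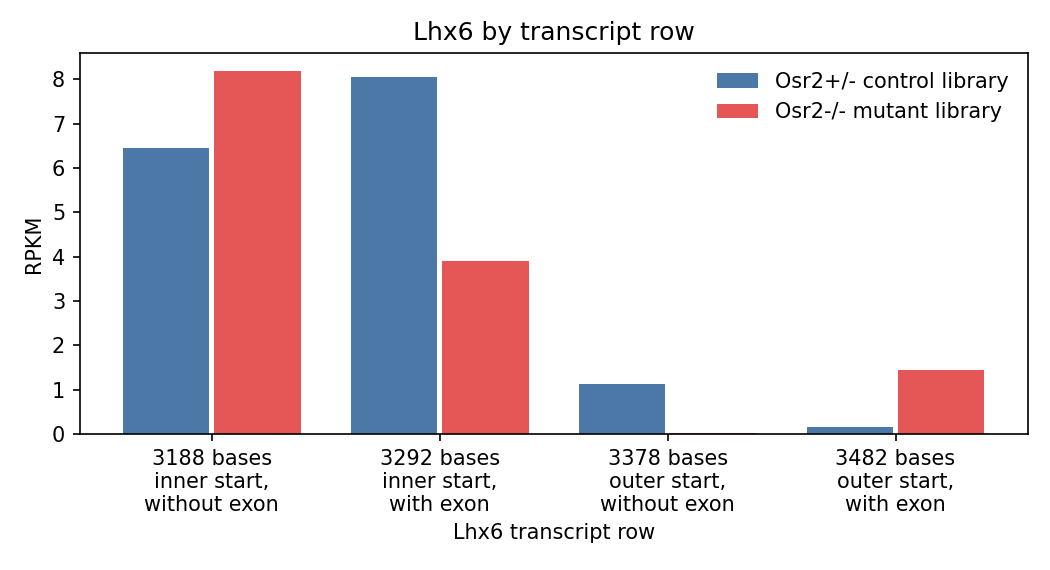
RPKM of the 4 Lhx6 transcript rows in the control (blue) and mutant (red) library, 1 library each, with no error available for single rows. The 3292-base row with the exon is lower in the mutant (8.06 to 3.91 RPKM) and the 3188-base row without it higher (6.46 to 8.18 RPKM).

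Set against all genes, more of the members were on the lower side. Each gene was measured by log2 of (mutant RPKM + 1) divided by (heterozygote RPKM + 1), computed for the 9779 genes at 1 RPKM or more in at least 1 library; Msx2 did not pass and 8 members were tested. Of these 8, 3 (Osr2, Pax9 and Lhx8) were at least 1.5-fold lower, against 3.57% of all genes tested, and 1 (Osr2) at least 2-fold lower, against 0.798%. No member was 1.5-fold higher (2.55% of all genes) or 2-fold higher (0.89%). Without Osr2, which is itself mutated, 2 of 7 were at least 1.5-fold lower. A log2 ratio below 0 was found for 6 of the 8 members and for 5 of the 7, against 57.5% of all genes tested. The members were chosen with earlier results of these data known, which limits these comparisons with all genes. Barx1 missed the 1.5-fold line with a log2 ratio of -0.53, and Lhx8 lay just past it at -0.59. After centring on the median of all genes or rescaling to TPM, Lhx8 lay at -0.54 or -0.56, short of 1.5-fold, and after upper-quartile scaling Osr2 alone remained past 1.5-fold, with Pax9 at -0.55 and Lhx8 at -0.51. A counting interval below 1 was found for 5 members (Osr2, Pax9, Barx1, Lhx8 and Lhx6), against 15.9% of all genes, and one above 1 for Osr1, against 7.87%. Among genes with a mean of 5 RPKM or more, a class that holds all 8 members, 1.98% were at least 1.5-fold lower and 19.6% had an interval below 1. The median log2 ratio was -0.37 for the 8 members, -0.21 for the 7 without Osr2 and -0.05 for all genes. Lower log2 ratios than that of Osr2 were found for 15 genes, than that of Pax9 for 285 (2.91%), than that of Lhx8 for 346 (3.54%) and than that of Barx1 for 465 (4.76%). Osr1 stood on the other side, with 90.2% of all genes below it.

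**Figure D3:**
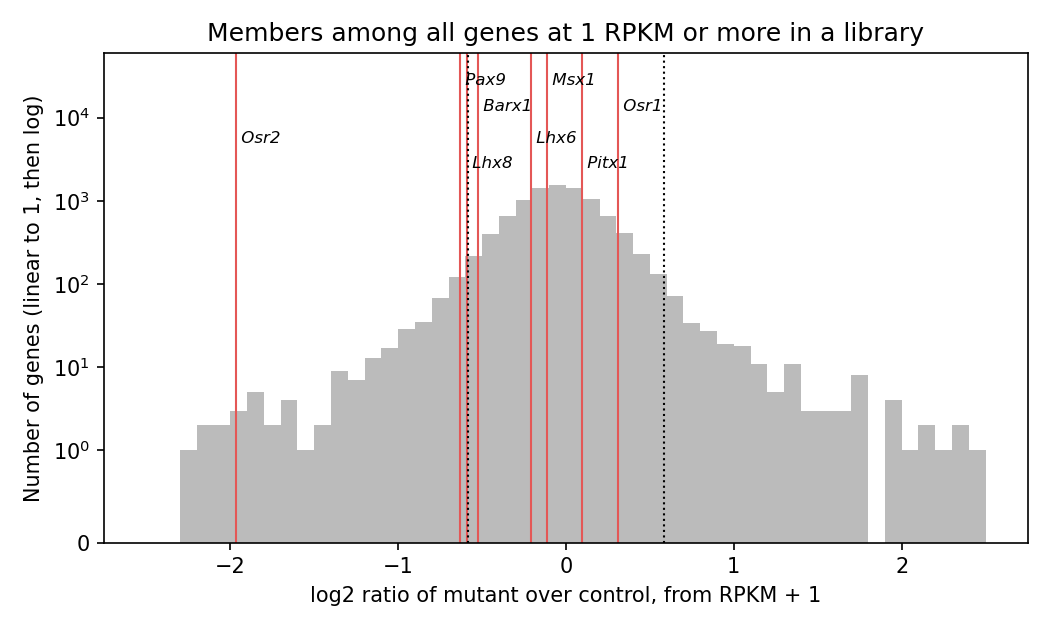
Number of genes (axis linear to 1, then log) by log2 ratio of mutant over control from RPKM + 1, for genes at 1 RPKM or more in a library; red lines are the 8 members tested, dotted lines 1.5-fold, and 24 genes beyond 2.5 on either side are not drawn. Osr2 lies far out at -1.97, Pax9, Lhx8 and Barx1 lie close together from -0.63 to -0.53, Osr1 lies at 0.31, above 90.2% of the genes, and Lhx6, Msx1 and Pitx1 lie nearer the centre.

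Within a library, ratios between members do not depend on how the libraries were scaled to each other. Msx1 was taken as the reference, a choice made with its similar level in both libraries known. Relative to Msx1, Osr2 was at 0.969 in the heterozygote and 0.249 in the mutant, 3.89-fold lower (3.29 to 4.61). Pax9 was at 1.54 and 1.07, 1.44-fold lower (1.27 to 1.64), Lhx8 at 0.765 and 0.544, 1.41-fold lower (1.20 to 1.65), and Barx1 at 0.990 and 0.738, 1.34-fold lower (1.14 to 1.58). Lhx6 kept its ratio to Msx1 within counting error, at 0.395 and 0.368, as did Pitx1 at 0.412 and 0.480. Osr1 was at 0.171 of Msx1 in the heterozygote and 0.237 in the mutant, 1.38 times as high (1.06 to 1.80). The intervals of these ratios are normal approximations on the log scale from the approximate reads.

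**Figure D4:**
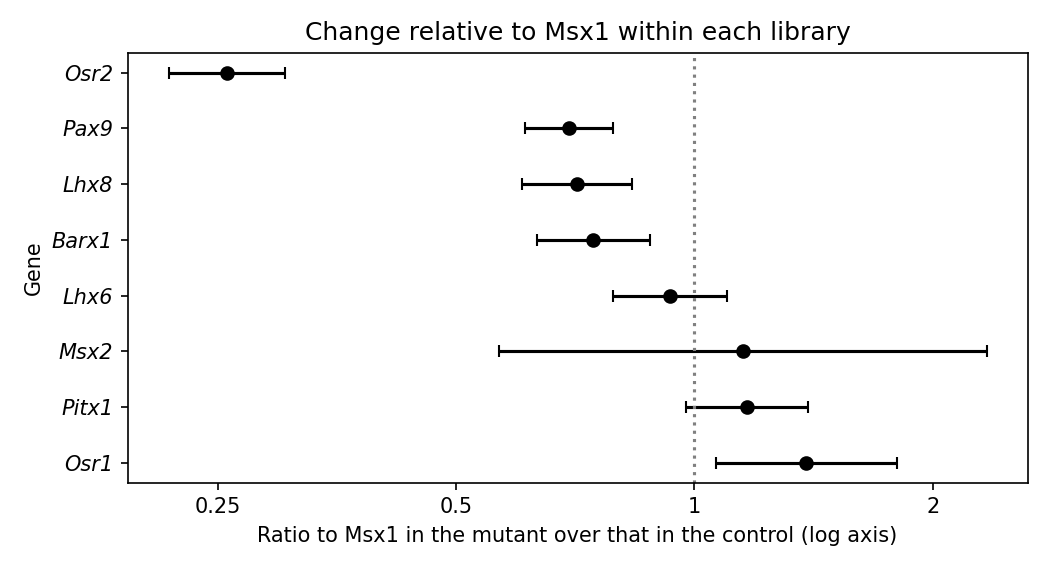
Ratio of each gene to Msx1 in the mutant library divided by that in the control library (log axis), with 95% counting intervals; the dotted line marks no difference. Osr2, Pax9, Lhx8 and Barx1 lie below 1 with their whole intervals, Osr1 above 1, and Lhx6, Msx2 and Pitx1 have intervals that include 1.

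The order of the 9 levels also shifted. In the control, Pax9 led, followed by Msx1, Barx1 and Osr2, whose intervals overlapped (36.2 to 44.0, 35.2 to 44.5 and 34.8 to 42.9 RPKM), then Lhx8, Pitx1 and Lhx6, of which Pitx1 and Lhx6 were not separated, then Osr1 and Msx2. In the mutant, Pax9 and Msx1 were not separated, and Barx1, Lhx8, Pitx1 and Lhx6 followed in that order with separate intervals. Osr2 was seventh, not separated from Osr1. Among 22054 genes, Osr2 ranked 377 by level in the control and 1859 in the mutant, whereas Msx1 ranked 364 and 383. Summed over the 9 genes, the level was 250.5 RPKM in the heterozygote and 173.4 RPKM in the mutant.

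With 2 libraries, likeness to a member can only mean a similar level in both, measured as the distance on the log2(RPKM + 1) scale. The nearest genes to Osr2 were Lrrtm1, a synaptic adhesion gene (distance 0.66), the mitochondrial import gene Tomm5 (0.85) and Igsf10 (0.88), and no gene lay within 0.2. Lrrtm1 was at 24.6 RPKM in the heterozygote and 10.4 RPKM in the mutant. Pax9 had closer neighbours, with 5 genes within 0.2. They include the ribosomal protein gene Rps23 (61.0 RPKM in the heterozygote and 41.1 RPKM in the mutant), the glypican gene Gpc6 (61.3 and 36.5 RPKM) and Dbi (56.5 and 42.5 RPKM).

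Genes of the signalling network around the members included some that were higher and some that were lower. Counts past a fold are on the RPKM + 1 scale, whereas the folds printed with intervals are ratios of RPKM itself. A low gene such as Bmp2 can therefore pass a line by its printed fold and not in the counts. Of 32 genes listed for tooth bud signalling, 30 were tested; 4 were at least 1.5-fold lower (3.57% of all genes) and 4 at least 1.5-fold higher (2.55%), with 8 intervals below 1 (15.9% of all genes) and 8 above (7.87%). The median log2 ratio of 0.07 compares with -0.05 for all genes, and was -0.01 with a filter of 5 RPKM. Bmp4 was at 10.4 RPKM in the heterozygote and 11.0 RPKM in the mutant, a fold of 1.07 (0.872 to 1.31), near 1 as for its partner Msx1. Sfrp2, a secreted Wnt inhibitor, was at 208 and 55.2 RPKM, 3.76-fold lower (3.56 to 3.96), a difference close to that of Osr2. Dkk2, another Wnt antagonist, was 2.31-fold lower (2.01 to 2.65), from 14.5 to 6.27 RPKM. Bmp2, a ligand of the enamel knot, was 2.35-fold higher (1.60 to 3.48), from 2.19 to 5.14 RPKM. The cell cycle inhibitor Cdkn1a was at 0.492 and 1.67 RPKM, on about 5 control reads. It passed the filter through the mutant library alone, so its place in the counts on the higher side follows in part from the filter. The other genes past 1.5-fold on the RPKM + 1 scale were named after their values were seen. On the lower side were the ligand gene Fgf10 (2.56 and 1.19 RPKM) and the Wnt inhibitor Sfrp1 (28.7 and 17.9 RPKM). On the higher side were the osteoblast factor Runx2 (13.4 and 24.7 RPKM) and the Wnt-pathway factor Lef1 (6.56 and 11.7 RPKM). Among other listed Wnt genes, Wif1 (5.83 and 3.86 RPKM) had an interval below 1 and Tcf7 (2.02 and 3.48 RPKM) one above. The intervals of Frzb (35.5 and 35.2 RPKM), Dkk3 (6.30 and 7.20 RPKM), Axin2 (9.06 and 8.86 RPKM) and Wnt5a (10.2 and 11.3 RPKM) included 1.

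Most relatives and partners of the members were under 1 RPKM in both libraries. Of 24 such genes, 8 were tested and none was 1.5-fold apart in either direction on the RPKM + 1 scale. Of the 8, 3 had an interval below 1 (15.9% of all genes) and none above (7.87%). Pax7, Pitx3 and Lhx1 to Lhx4 were listed at 0 in both libraries, and the 16 genes not tested were at most at 0.795 RPKM in the heterozygote and 0.887 RPKM in the mutant. Ldb2, a LIM-domain binding cofactor, was at 7.15 and 4.84 RPKM, 1.48-fold lower (1.16 to 1.83). Its relative Ldb1 was at 13.3 and 12.7 RPKM. Lmo4, a LIM-only protein, was at 37.6 and 32.1 RPKM, and the corepressor gene Tle3 at 7.06 and 5.74 RPKM. Lmo2 was at 0.550 and 1.07 RPKM, a ratio of 1.95 in RPKM itself, with an interval that included 1.

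Marker lists of the tissue and of other cell types were read against all genes tested, of which 15.9% had a counting interval below 1 and 7.87% one above. Of 15 markers of cranial mesenchyme, the tissue of the members, 14 were tested and none was 1.5-fold apart; the interval lay below 1 for 8 of them and above 1 for 2. Their median log2 ratio was -0.14, and their summed level was 742 RPKM in the heterozygote and 672 RPKM in the mutant. The homeobox gene Prrx1 led, at 151 and 122 RPKM, so the labelled tissue carried its markers in both. Of 19 markers of dental and oral epithelium, 14 were tested, 8 had an interval above 1 and none below, and the sum was 50.03 RPKM in the heterozygote and 69.6 RPKM in the mutant. Krt18 (0.862 and 2.24 RPKM) and Grhl2 (0.736 and 1.29 RPKM), both with intervals above 1, passed the filter through the mutant library alone. So did Cdh1 (0.673 and 1.05 RPKM), whose interval included 1. The epithelial count above 1 therefore follows in part from the filter. Shh and Cldn7 were listed at 0 in the control, Edar at 0 in the mutant, and Trp63 was left out for its failed status in the mutant. Of 9 osteoblast markers, 6 were tested, 5 had an interval above 1 and 1 below (Phex, at 1.78 and 1.05 RPKM). The sum over the list was 17.8 RPKM in the heterozygote and 44.3 RPKM in the mutant. Sp7 (0.607 and 3.84 RPKM), Ibsp (0.459 and 13.0 RPKM) and Ifitm5 passed the filter through the mutant library alone. The count above 1 therefore follows in part from the filter. Ifitm5, Spp1 and Bglap were listed at 0 in the control. In the mutant they were at 1.12, 0.0992 and 0.147 RPKM, on about 27, 5 and 2 reads. The erythroid sum was 1099.6 and 873 RPKM, with 5 of 6 intervals below 1 and none above. Intervals lay above 1 for 2 of 3 tested markers of cartilage (sums of 11.4 and 16.0 RPKM), 2 of 2 of tendon (5.11 and 12.1 RPKM) and 2 of 2 of neurons and glia (3.70 and 7.29 RPKM), and none below. The tendon marker Tnmd (0.979 and 5.76 RPKM) passed the filter through the mutant library alone. The other lists showed few or no such differences. Both tested markers of skeletal muscle had intervals that include 1 (sums of 3.88 and 5.23 RPKM), as did the 4 of macrophages (14.1 and 13.3 RPKM). Of 6 tested endothelial markers, 1 had an interval below 1 (Emcn, at 5.53 and 2.54 RPKM) and none above, with sums of 28.4 and 22.7 RPKM. The part of these cell types, and of the mesenchyme markers' own difference, in the levels of Pax9, Barx1, Lhx8 and Osr1 was not tested. The file names give each library its own sequencing lane, so a lane effect cannot be told apart from genotype.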

How the data were processed

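Total RNA was measured in 1 Osr2+/- and 1 Osr2-/- library. The submitters' processing notes list TopHat 1.4.1, Bowtie 0.12.7 and build mm9; the deposited files are named for Cufflinks. RPKM values and unscaled coverage (mean read depth, a signal per transcript) were deposited by the authors, per the file headers, with transcript length, and RPKM was used without rescaling. Rows (54, from 18 genes) whose status was failed or high-data in a library were dropped, and the rest summed per symbol.

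Coverage divided by RPKM gave a mutant library 6.38 times as deep. Approximate reads are coverage times length over 44.3 bases, the median of products of 20 to 66 bases, averaged over both libraries; this step is uncertain, and all intervals rest on it. It gives about 5.38 M mapped reads for the heterozygote and 34.3 M for the mutant. Python 3.11.15 with scipy 1.17.1 was used. No test between genotypes was possible with 1 library each.

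The members and lists were chosen with earlier results of these data known. The rule for named genes was all members, the 4 most extreme genes per list by log2 ratio, and the 3 genes nearest in level to Osr2 and to Pax9. Predicted genes and small RNAs were left out of the nearest genes. Marker lists are given mainly by counts and sums, so not all of their 4 most extreme genes are named. Bmp4, Ldb1, Phex, Grhl2, Cdh1, Fgf10, Sfrp1, Runx2 and Lef1 fell outside this rule and were named after their values were seen. So were Wif1, Tcf7, Frzb, Dkk3, Axin2 and Wnt5a, and marker genes listed at 0. Alternatives varied the pseudocount, filter, scaling, row choice, status and read size. Promoter windows came from RefSeq and transcripts from GENCODE, both on GRCm38, whose coordinates were not mixed with mm9.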

Additional observations from a re-analysis of the deposited data

How the results depend on the processing

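Osr2, Pax9, Barx1, Lhx8 and Msx1 had a log2 ratio below 0, and Osr1, Msx2 and Pitx1 above 0, under all 8 alternatives of pseudocount, filter, scaling, row choice and status; Lhx6 turned to 0.30 with its highest transcript row. The number of members at least 1.5-fold lower fell from 3 to 1 with upper-quartile scaling, while over all genes it was 274 of 9786, against 349 of 9779. The median log2 ratio of the members was -0.21 without a filter and -0.17 on the TPM scale, where Msx2 counts as tested. Among network genes, those at least 1.5-fold higher numbered 7 with a pseudocount of 0.1 and 9 on the TPM scale, against 4, while over all genes they numbered 556 of 9779 and 1705 of 14051, against 249 of 9779. Network genes at least 2-fold higher, counted with the pseudocount, numbered 2, 3 and, with upper-quartile scaling, 1, against 0. The share of all genes at 2-fold was not computed for these alternatives. Of all genes past 1.5-fold, 41.6% were higher as deposited, 53.7% after upper-quartile scaling, 51.2% on the TPM scale and 50.9% after centring on the median. With a read of 50 or 100 bases, 0 members had an interval above 1, and at 100 bases the interval of Lhx6 was 0.703 to 1.04. The share of all genes was not computed at these read sizes. The cause of these changes was not tested. No paired analysis was possible because each genotype has 1 library; for the same reason no replicate could be left out. The control depth limits Msx2, with about 9 reads, and Osr1, with 74.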
